A study of Danio rerio with 8 samples.

Results

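The cytochrome P450 (*cyp*) genes of the zebrafish are described here in whole embryos at 2 days post fertilisation (dpf). They were chosen by name alone: every gene in the deposited table whose symbol begins with cyp and a family number, without regard to letter case. This gave 85 genes of 32057 in the table. Of these, 82 passed the filter on low counts (more than 1 count in 4 libraries or more) and were tested, out of 23567 genes tested in all. The genes lay on 19 of 26 chromosomes.

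The mutant embryos carried the hu2787 allele of *fmr1* on both chromosomes, a non-sense mutation in the zebrafish orthologue of the human fragile X gene, and were compared with wild type embryos of the same age. The mutant clutches were S2, S4, S5 and S8 (4 clutches), and the wild type ones were A, D, G and L (4 clutches). Each library was polyA+ RNA pooled from the embryos of 1 clutch, and each clutch came from a different pair of parents. Within a genotype, values are listed in these clutch orders. All parents descended from 1 imported population that carried hu2787, and some clutches also carried the w2 allele of *mitfa*, a pigmentation gene. No promoter or Cre line was involved, and the mutation was present in every cell. In RNA from entire embryos, fewer cells of a type and less RNA per cell cannot be told apart.

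P450 enzymes are haem proteins that insert oxygen into their substrates. Those of the endoplasmic reticulum take electrons from P450 oxidoreductase, and those of the mitochondria from ferredoxin. Some families have fixed tasks in all vertebrates: they make steroid hormones, sterols and bile acids, switch vitamin D on and off, and clear retinoic acid, the signal that patterns the early hindbrain and the limb buds. Other families oxidise fatty acids and foreign compounds, and these have multiplied into tandem clusters in fish.

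Total counts were 29296538 to 33205738 per library, and no pair of libraries agreed within sampling noise. The targeted gene *fmr1* (Chromosome 14:20156477–20191281, GRCz11) had 19.8, 23.4, 22.8 and 19.5 counts per 1000000 (CPM, scaled by TMM factors) in mutant clutches, against 54.2, 50.0, 48.1 and 47.1 CPM in wild type clutches (log2 fold change −1.22, SE 0.11). Clutches A and D stood apart from the other 6 on the first principal component, which held 29.6% of the variance, at 57.4 and 62.3 against −42.5 to 4.23. Values without A and D are therefore given beside some of the results, and some are given without S8 as well. They are not given for every named gene, nor for partner and marker genes. On this component S8 (−42.5) lay beside S4 (−41.4), but S8 was the highest clutch in 30 of 82 members. Both alternatives were chosen after the data had been seen.

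No P450 gene differed between the genotypes at an FDR (false discovery rate) of 0.05 in edgeR's quasi-likelihood test, adjusted over all 23567 genes. Of all genes tested, 3 (0.0127%) passed, and the smallest adjusted p of a P450 gene was 0.528. The likelihood-ratio test of edgeR passed 1 P450 gene, *cyp4v7*, where it passed 0.132% of all genes, and DESeq2 passed the same gene, where it passed 0.153%. An unadjusted p under 0.05 was found for 13 of the 82 members (15.9%), against 9.41% of all genes. Of these, 9 were higher in mutant clutches and 4 lower, where 4.22% of all genes were higher and 5.19% lower. Without clutch S8 this count was 5 of 82 (5.30% of all genes), and without clutch A it was 7 (4.80%).

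With every clutch included, the sign of the difference was uneven across the family. The log2 fold change of mutant over wild type was above 0 for 60 of 82 members (73.2%), against 53.1% of all genes, with a median of 0.30 against 0.02. Leaving out clutch S8 gave 53 members above 0 (64.6%, against 54.1% of all genes). Leaving out A and D gave 50 (60.98%, against 52.1%), and leaving out all 3 of these clutches gave 45 (54.9%, against 50.4%). The excess over all genes was therefore smaller in each of these settings, and smallest without all 3 clutches. The genotypes did not overlap, with every mutant clutch on the same side of every wild type clutch, in 5 members (6.10%), against 4.28% of all genes. *cyp4v7*, *cyp2ad2* and *cyp2k21* separated upwards in mutant clutches, as 1.78% of all genes did, and *cyp2r1* and *cyp26c1* separated downwards, as 2.5% did.

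**Figure D1:**
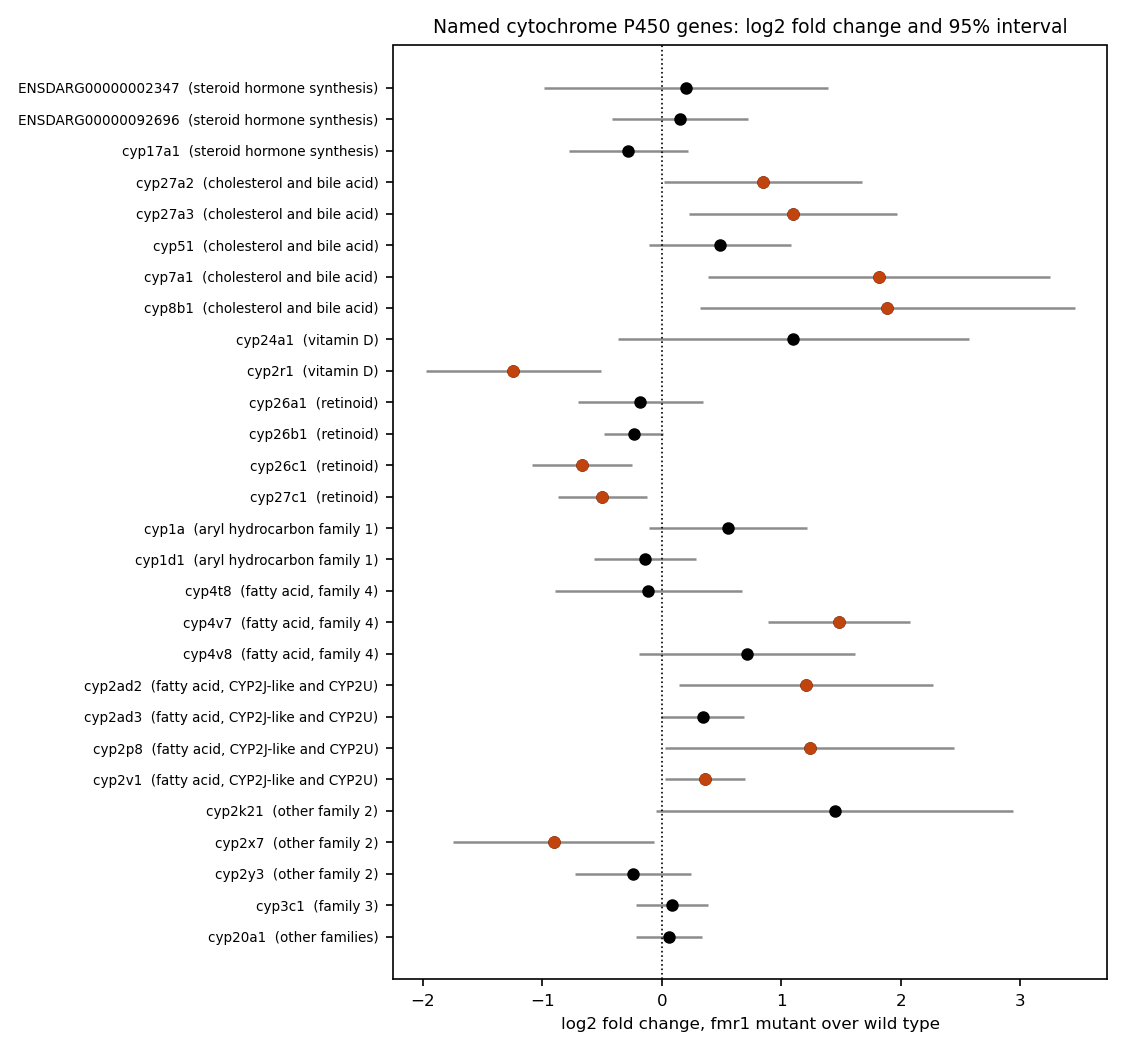
Log2 fold change of mutant over wild type clutches for 28 named P450 genes, grouped by class, with 95% intervals of edgeR's quasi-likelihood fit over 4 clutches against 4. Genes with an unadjusted p under 0.05 are in orange, and none passed the FDR. The interval of *cyp4v7* runs from 0.89 to 2.07, and those of *cyp2r1*, *cyp26c1*, *cyp27c1* and *cyp2x7* lie wholly below 0.

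Levels between genes are compared as CPM per kilobase of exon. *cyp2y3* was the most abundant member at 29.1 CPM per kb over all clutches, followed by *cyp20a1* at 18.7 CPM per kb. Above 10 CPM per kb there were 10 members, among them *cyp2aa9*, *cyp2aa3*, *cyp26b1*, *cyp2ad3*, *cyp26a1*, *cyp51*, *cyp2k16* and *cyp3c1*. Above 1 CPM per kb there were 38 members. Summed over the 82 members, the P450 genes took 572 ± 77.3 CPM in mutant clutches and 564 ± 36.5 CPM in wild type clutches (SD, n = 4 each). The lowest sum was in mutant clutch S2 (469 CPM) and the highest in mutant clutch S8 (640 CPM), so the genotypes overlapped.

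**Figure D2:**
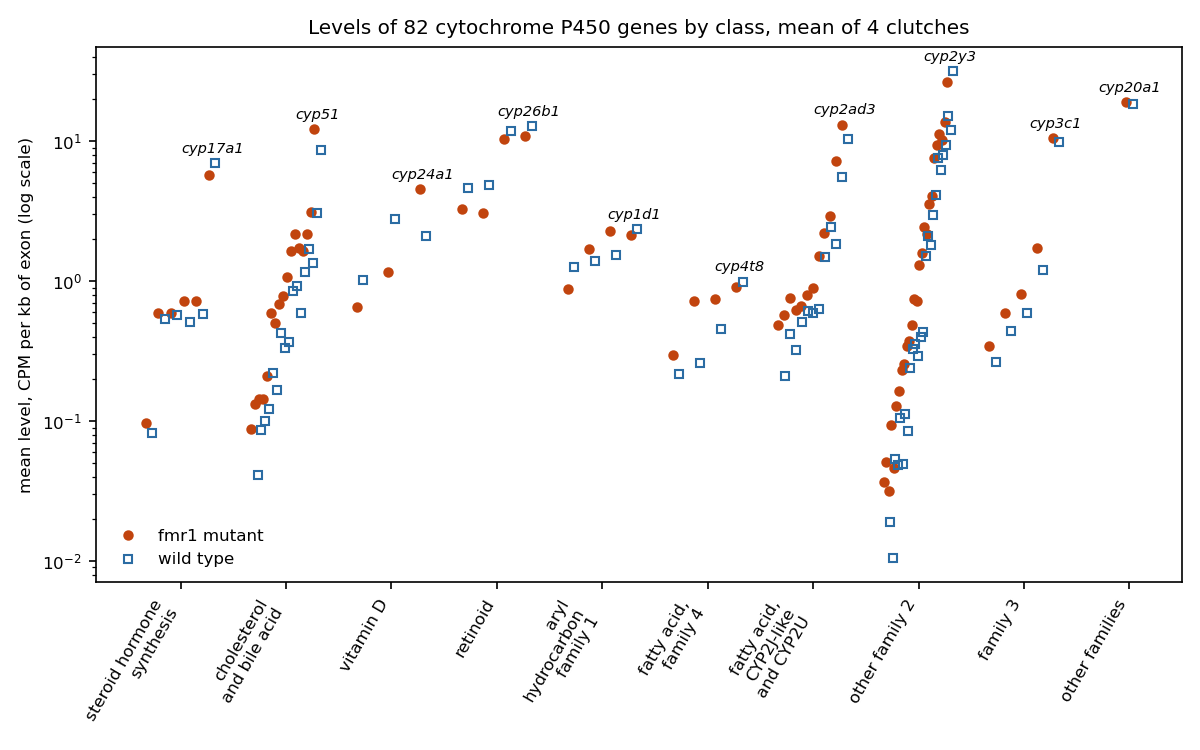
Mean level of each of the 82 members, in CPM per kilobase of exon on a log axis, by class, with mutant clutches as filled circles on the left and wild type clutches as open squares on the right. The most abundant gene of each class is labelled. Levels within a class spread widely, and in the remaining family 2 genes they run from 0.0278 to 29.1 CPM per kb over all clutches.

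The steroid hormone genes showed no member with an unadjusted p under 0.05. All 6 members tested had a log2 fold change between −0.28 and 0.50, and 5 were above 0, as 53.1% of all genes were. Side-chain cleavage of cholesterol, the step that starts steroid synthesis in mitochondria, is the task of CYP11A1, and the name table gave this name to 2 neighbouring genes on Chromosome 25. The more abundant, ENSDARG00000092696 (25:22296666–22311542), had 0.89, 1.12, 0.994 and 1.25 CPM in mutant clutches, against 0.931, 0.892, 0.875 and 1.13 CPM in wild type clutches. Its neighbour ENSDARG00000002347 (25:22319940–22335283) had only 4 to 15 counts per library. The clutches overlapped in both genes, with log2 fold changes of 0.15 (SE 0.26) and 0.20 (SE 0.54).

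*cyp17a1*, whose enzyme hydroxylates steroids on the way to cortisol and androgens, was the most abundant gene of this class per kilobase (6.33 CPM per kb). It had 13.2, 14.7, 19.1 and 17 CPM in mutant clutches, against 24.1, 25.6, 12.7 and 15.4 CPM in wild type clutches. Clutches A and D were the highest and G the lowest of all 8, so the wild type range enclosed the mutant range (log2 fold change −0.28, SE 0.23). Without A and D the difference was 0.20. The class also held *cyp17a2*, *cyp21a2* (the 21-hydroxylase) and *cyp11c1* (the 11-beta-hydroxylase), at 0.584 to 0.651 CPM per kb, with unadjusted p of 0.127 or more. *cyp19a1a*, the ovarian form of aromatase, was not tested, with 1, 2, 2 and 1 counts in mutant clutches and 0, 0, 1 and 2 counts in wild type clutches.

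Among the cholesterol and bile acid genes, 4 of 17 had an unadjusted p under 0.05, against 9.41% of all genes. All 4 were higher in mutant clutches, as 4.22% of all genes were. Of the log2 fold changes, 15 of 17 were above 0 (median 0.56), against 53.1% of all genes. In 11 of the 17 genes the highest of all 8 clutches was S8. Without S8 the count of 4 became 0, while 14 of 17 log2 fold changes were still above 0, against 54.1% of all genes.

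*cyp7a1*, the rate-limiting hydroxylase of bile acid synthesis from cholesterol in mammals (2:22150134–22152797), had 0.345, 0.97, 0.479 and 2.93 CPM in mutant clutches, against 0.193, 0.345, 0.375 and 0.415 CPM in wild type clutches. S8 was far above the rest, and S2 lay among the wild type clutches. Its log2 fold change of 1.82 (SE 0.65, unadjusted p = 0.0175) was 0.87 without S8 (unadjusted p = 0.0994) and 1.58 without A and D (unadjusted p = 0.106).

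*cyp8b1*, the 12-alpha-hydroxylase that sets which bile acid is made (2:3435888–3437862), had 2.64, 2.37, 1.07 and 11.2 CPM in mutant clutches, against 0.417, 0.662, 1.66 and 1.96 CPM in wild type clutches. Its level in S8 was far above that of any other clutch, and S5 lay inside the wild type range. The log2 fold change of 1.89 (SE 0.71, unadjusted p = 0.0229) was 0.82 without S8 (unadjusted p = 0.160) and 1.26 without A and D (unadjusted p = 0.164). Leaving out A alone or D alone also took the unadjusted p above 0.05. The name table lists 2 more genes as CYP8B1 beside it, with mean levels of 0.0643 and 0.122 CPM per kb.

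The sterol 27-hydroxylase genes had smaller differences. *cyp27a3* (9:23009608–23023288) had 1.35, 2.09, 0.699 and 2.73 CPM in mutant clutches, against 0.674, 0.749, 0.812 and 0.981 CPM in wild type clutches. The wild type clutches were close together, and S5 was the only mutant clutch within their range. Its log2 fold change was 1.10 (SE 0.39, unadjusted p = 0.018), 0.81 without S8 (unadjusted p = 0.0671) and 0.95 without A and D (unadjusted p = 0.109).

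*cyp27a2* (6:9471367–9529217) had 3.07, 4.28, 1.33 and 4.15 CPM in mutant clutches, against 2.41, 1.96, 1.06 and 1.7 CPM in wild type clutches. Again S5 alone lay among the wild type clutches (log2 fold change 0.85, SE 0.37, unadjusted p = 0.0455). Leaving out any of S2, S4, S8, D, G or L took its p above 0.05, up to 0.122 without S4. Without A and D the log2 fold change was larger, at 1.24 (unadjusted p = 0.0356). *cyp27a1.1*, the most abundant of the CYP27A group at 1.76 CPM per kb, had a log2 fold change of 0.70 with overlapping clutches.

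*cyp51*, the lanosterol demethylase of cholesterol synthesis (19:598657–617246), was the most abundant gene of the class at 10.4 CPM per kb. It had 22.8, 28.6, 28.2 and 46.9 CPM in mutant clutches, against 15.3, 17, 27.3 and 30.8 CPM in wild type clutches. S8 was the highest clutch and A the lowest, with the others overlapping (log2 fold change 0.49, SE 0.27, unadjusted p = 0.098). The 5 genes named for cholesterol 24-hydroxylase, *cyp46a1.1* to *cyp46a1.5*, lay side by side on Chromosome 20 and had log2 fold changes between −0.03 and 0.56. *cyp7b1*, an oxysterol hydroxylase in mammals, had 5.36 ± 1.57 CPM in mutant clutches and 5.21 ± 1.72 CPM in wild type clutches.

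Bile acids are made by the liver, and 6 of the 13 liver and intestine markers tested were highest in S8. So were 6 of 31 markers of 5 other cell type lists, and 16.0% of all genes. Of 10 liver markers tested, 3 had an unadjusted p under 0.05, against 9.41% of all genes. All 3 were higher in mutant clutches, as 4.22% of all genes were. *fabp10a* had 2.79, 4.88, 2.43 and 7.59 CPM in mutant clutches, against 1.25, 0.921, 1.66 and 3.10 CPM in wild type clutches. *hpda* had 6.63, 9.61, 6.92 and 15.3 CPM in mutant clutches, against 4.88, 5.61, 5.87 and 7.44 CPM in wild type clutches. For *ttr* the counts were 7, 15, 3 and 29 in mutant clutches, against 2, 2, 3 and 3 in wild type clutches.

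The intestine marker *vil1* had 11.2, 19.3, 4.97 and 29.3 CPM in mutant clutches, against 3.34, 2.82, 9.40 and 9.29 CPM in wild type clutches. These 4 markers were highest in S8, as *cyp7a1*, *cyp8b1* and *cyp27a3* were. The other 9 markers of both lists had no unadjusted p under 0.05. Of these, *fgb* (324 CPM) and *apoa4b.1* (871 CPM) were highest in S8, whereas *tfa* (transferrin) was the lowest of all 8 clutches in S8, at 740 CPM. Log2 fold changes were −0.06 for *cp*, −0.03 for *apoa2*, −0.14 for *serpina1l*, −0.19 for *fabp2* and −0.17 for *apoa4b.1*. They were above 0 for *gc* (0.55), *ambp* (0.27), *fgb* (0.21) and *tfa* (0.17). The intestine list also held *fabp6*, which did not pass the filter on low counts. It had 1, 5, 1 and 9 counts in mutant clutches and 0 counts in each wild type clutch. No marker of either list was at 0 in every clutch. The summed level of the 10 liver markers was 4946 to 6706 CPM in mutant clutches and 5155 to 5769 CPM in wild type clutches. That of the 3 intestine markers tested was 477 to 1092 CPM in mutant clutches and 732 to 985 CPM in wild type clutches. Most of the liver sum was *apoa2* (mean 3627 CPM in mutant and 3700 CPM in wild type clutches) and *tfa* (1200 and 1069 CPM). Most of the intestine sum was *apoa4b.1* (613 and 687 CPM). The sums therefore say little about scarce markers such as *fabp10a*, *hpda*, *ttr* and *vil1*. The part of the markers in the result was not tested.

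**Figure D3:**
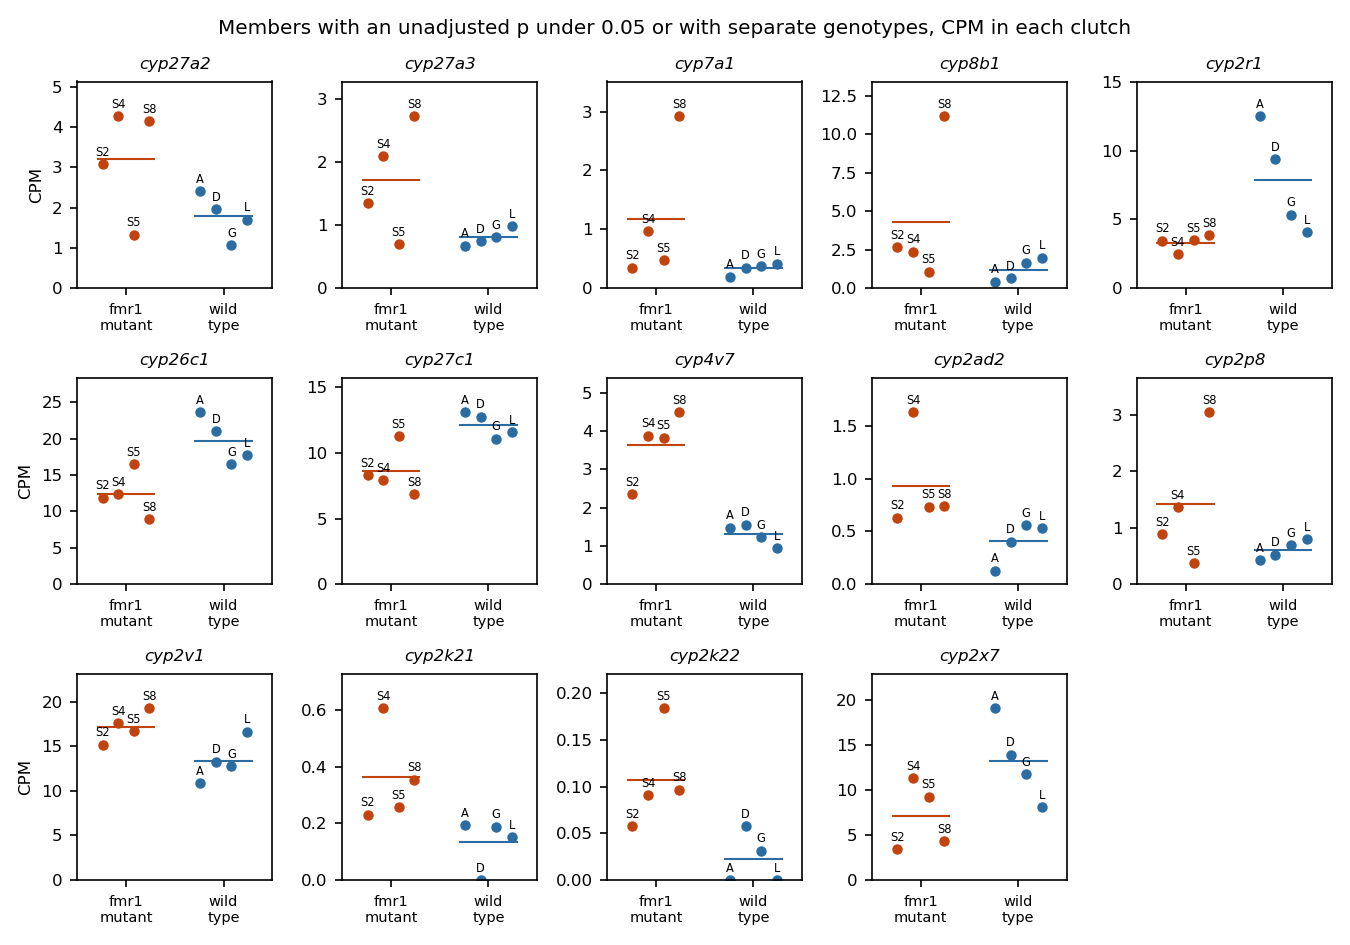
CPM of 14 P450 genes in each clutch, with mutant clutches on the left and wild type clutches on the right, and a bar at the mean of 4 clutches. S8 is the highest clutch of *cyp8b1* at 11.2 CPM and of *cyp7a1* at 2.93 CPM, whereas the 4 mutant values of *cyp4v7* all lie above the wild type values.

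The vitamin D genes differed among themselves. *cyp2r1*, which in mammals makes 25-hydroxyvitamin D (7:27455321–27697234), had 3.45, 2.46, 3.5 and 3.83 CPM in mutant clutches, against 12.5, 9.36, 5.34 and 4.08 CPM in wild type clutches. The mutant clutches were close together, the wild type clutches spread over a wide range with A and D at the top, and the genotypes did not overlap. The log2 fold change was −1.24 (SE 0.33, unadjusted p = 0.00338, edgeR adjusted p = 0.528). It lay between −1.46 and −0.92 when any 1 clutch was left out, with an unadjusted p of 0.0118 or less, and was −0.50 without A and D (unadjusted p = 0.0827).

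*cyp24a1*, whose enzyme inactivates vitamin D (6:55852274–55864687), had 2.76, 11.1, 7.33 and 17.3 CPM in mutant clutches, against 0.482, 4.32, 7.65 and 5.47 CPM in wild type clutches. The clutches ranged over 35.8-fold, with S8 the highest and A the lowest, and overlapped. Its log2 fold change of 1.10 (SE 0.66) had an unadjusted p of 0.127. *cyp27b1*, which makes the active hormone, had 1.40 ± 0.301 CPM in mutant clutches and 2.18 ± 1.52 CPM in wild type clutches, with A again the highest at 4.08 CPM.

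All 4 retinoid genes had log2 fold changes below 0, with a median of −0.37, whereas 53.1% of all genes were above 0. Without L, 1 of the 4 was above 0, against 52.7% of all genes. An unadjusted p under 0.05 was found for 2 of the 4, against 9.41% of all genes. Summed over the 4 genes, the level was 77.6, 89.2, 98.4 and 65.1 CPM in mutant clutches, against 105, 98.1, 100.1 and 110 CPM in wild type clutches. Only S5 and D crossed. S8 was the lowest of the 8 clutches in each of the 4 genes.

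*cyp26c1*, one of the enzymes that degrade retinoic acid (17:19522856–19535328), had 11.9, 12.4, 16.5 and 8.94 CPM in mutant clutches, against 23.7, 21, 16.5 and 17.7 CPM in wild type clutches. The genotypes did not overlap, but S5 and G were equal to 3 digits. The log2 fold change was −0.67 (SE 0.19, unadjusted p = 0.0051, edgeR adjusted p = 0.528), and it lay between −0.83 and −0.52 with any 1 clutch left out. Without A and D it was −0.45 (unadjusted p = 0.0731).

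*cyp27c1*, which desaturates vitamin A in zebrafish and shifts photoreceptors towards red light (6:9568149–9581949), had 8.33, 7.94, 11.3 and 6.88 CPM in mutant clutches, against 13.1, 12.8, 11.1 and 11.6 CPM in wild type clutches. S5 lay just above G, and the other mutant clutches lay below every wild type clutch. The log2 fold change was −0.50 (SE 0.17, unadjusted p = 0.0131). It kept a p under 0.05 with any 1 clutch left out, and was −0.39 (unadjusted p = 0.101) without A and D.

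*cyp26b1* and *cyp26a1*, the other retinoic acid hydroxylases, were the most abundant of the class at 11.8 and 11.1 CPM per kb. *cyp26b1* had 39.1, 48.3, 44.3 and 36.6 CPM in mutant clutches, against 52.2, 45.5, 49.3 and 50.9 CPM in wild type clutches (log2 fold change −0.23, 95% interval −0.48 to 0.01). Only S4 and D crossed. *cyp26a1* had 18.3, 20.6, 26.4 and 12.6 CPM in mutant clutches, against 16.3, 18.9, 23.2 and 30.01 CPM in wild type clutches. These ranges overlapped throughout, with a 95% interval of −0.70 to 0.34.

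The CYP1 genes, some of which are classically induced through the aryl hydrocarbon receptor, had no member with an unadjusted p under 0.05. Of 4 log2 fold changes, 2 were above 0, as 53.1% of all genes were. *cyp1a*, the usual reporter of receptor activity, had 2.96, 5.76, 5.6 and 9.52 CPM in mutant clutches, against 4.3, 3.54, 3.94 and 4.42 CPM in wild type clutches. Of the mutant clutches 3 lay above the wild type range and S2 below it (log2 fold change 0.56, SE 0.30, unadjusted p = 0.0909). *cyp1d1*, the most abundant per kilobase (2.25 CPM per kb), had 8.56, 16.3, 12.3 and 14.4 CPM in mutant clutches, against 14.7, 15.4, 11.8 and 14.9 CPM in wild type clutches, and the ranges overlapped. *cyp1b1* had 2.98 ± 0.987 CPM in mutant clutches and 4.3 ± 1.37 CPM in wild type clutches, and *cyp1c2* had 3.70 ± 0.684 CPM in mutant clutches and 3.05 ± 1.46 CPM in wild type clutches.

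Family 4 held the member with the smallest p. *cyp4v7* is 1 of a pair of zebrafish genes listed under human CYP4V2, a fatty acid omega-hydroxylase whose loss causes a crystalline dystrophy of the human retina. It is at 14:29975268–29990757 on the forward strand, and it was the only P450 gene on Chromosome 14, which also carries *fmr1*. It had 2.35, 3.88, 3.83 and 4.5 CPM in mutant clutches, against 1.48, 1.55, 1.22 and 0.944 CPM in wild type clutches. Every mutant clutch lay above every wild type clutch, with S2 (2.35 CPM) and D (1.55 CPM) the nearest.

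The mean of *cyp4v7* was 3.64 ± 0.911 CPM in mutant clutches and 1.30 ± 0.277 CPM in wild type clutches, which gave a log2 fold change of 1.48 (SE 0.27). By edgeR's quasi-likelihood test the adjusted p was 0.528, by its likelihood-ratio test 0.00313 and by DESeq2 0.000543. The exact permutation test of log2 CPM, run for this gene only, gave a two-sided p of 0.0286. This is the smallest that 70 arrangements of 8 clutches can give. Genotypes that do not overlap fix it, so it adds nothing to that separation. With any 1 clutch left out the log2 fold change lay between 1.36 and 1.65, and without A and D it was 1.75. Of its exon bases 10.98% are shared with *fam149a* on the same strand, and reads that lie in both genes were not counted. An effect of the mutation and one of other variants on the mutant copy of Chromosome 14 cannot be told apart in these clutches.

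The other gene of the pair, *cyp4v8* (1:17900306–17912645), was not separated. It had 2.18, 2.94, 1.07 and 1.64 CPM in mutant clutches, against 0.546, 1.21, 1.94 and 1.09 CPM in wild type clutches (log2 fold change 0.71, 95% interval −0.19 to 1.61). S5 was below 3 of the wild type clutches. *cyp4t8*, the most abundant of family 4 at 0.948 CPM per kb, had 2.07, 2.49, 1.07 and 3.02 CPM in mutant clutches, against 1.99, 1.5, 2.37 and 3.55 CPM in wild type clutches. *cyp4f3* was below it at 0.256 CPM per kb.

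The 12 CYP2J-like and CYP2U genes are relatives of the human epoxygenase of arachidonic acid, and 11 of them lie in a cluster on Chromosome 20 (25515259–25615802). An unadjusted p under 0.05 was found for 3 of 12, against 9.41% of all genes. All 3 were higher in mutant clutches, as 4.22% of all genes were. Of the log2 fold changes, 11 of 12 were above 0 (median 0.40), against 53.1% of all genes. The count of 3 became 0 without A, 0 without D, and 1 without S8 or G. It was 2 without S4, 3 without L, and 4 without S2 or S5. The share of all genes was also lower without A and without S8, as given above. *cyp2ad2* (20:25534669–25542183) had 0.632, 1.64, 0.736 and 0.74 CPM in mutant clutches, against 0.128, 0.403, 0.562 and 0.528 CPM in wild type clutches. The genotypes did not overlap, S4 was far above the rest, and A had only 4 counts. Its log2 fold change was 1.21 (SE 0.48, unadjusted p = 0.0296), and 0.79 without S4 (unadjusted p = 0.120). The unadjusted p was also above 0.05 without A and without D, and leaving out both gave 0.79 (unadjusted p = 0.156).

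*cyp2p8* (20:25575391–25580002) had 0.89, 1.36, 0.368 and 3.05 CPM in mutant clutches, against 0.417, 0.518, 0.687 and 0.793 CPM in wild type clutches. S8 was the highest clutch and S5 the lowest, so the mutant range enclosed the wild type range. A log2 fold change of 1.24 (SE 0.55, unadjusted p = 0.0465) was 0.57 without S8 (unadjusted p = 0.249), and the unadjusted p stayed under 0.05 only when S2 or S5 was left out. Without A and D the difference was 0.95 (unadjusted p = 0.223). *cyp2v1* (20:25533064–25558418) had a smaller and more even difference, with 15.2, 17.6, 16.7 and 19.3 CPM in mutant clutches, against 10.9, 13.3, 12.7 and 16.6 CPM in wild type clutches. Only L reached into the mutant range (log2 fold change 0.36, SE 0.15, unadjusted p = 0.0351). With 1 clutch left out, the unadjusted p stayed under 0.05 only without S2, S5 or L, and without A and D the difference was 0.24 (unadjusted p = 0.195).

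*cyp2ad3*, next to these genes and the most abundant of the class at 11.7 CPM per kb, had 23.6, 26.8, 24.3 and 33.5 CPM in mutant clutches, against 17.2, 19.6, 22.7 and 25.7 CPM in wild type clutches. L was the only wild type clutch above the lowest mutant clutch (log2 fold change 0.34, SE 0.16, unadjusted p = 0.0517). The remaining 8 genes of the class had log2 fold changes from −0.16 for *cyp2p10* to 0.66 for *cyp2p9*. *cyp2j20* and *cyp2p7* share exon bases on the same strand, so reads within the shared stretch were counted for neither.

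The remaining family 2 genes, mostly of fish subfamilies, had 1 member higher and 1 lower at an unadjusted p under 0.05 among 26. Of all genes, 4.22% were higher and 5.19% lower. Above 0 were 17 of the 26 log2 fold changes (median 0.22), against 53.1% of all genes. *cyp2x7* (25:17372290–17378881) had 3.39, 11.3, 9.24 and 4.34 CPM in mutant clutches, against 19.1, 13.9, 11.7 and 8.08 CPM in wild type clutches. S4 and S5 lay inside the wild type range, S2 and S8 below it, and A was the highest (log2 fold change −0.90, SE 0.38, unadjusted p = 0.0378). Without A the difference was −0.67 (unadjusted p = 0.119), and without A and D it was −0.48 (unadjusted p = 0.318). Leaving out S2, S8 or D also took the unadjusted p above 0.05. Its neighbour *cyp2x6* had 0.310 ± 0.283 CPM in mutant clutches and 0.707 ± 0.211 CPM in wild type clutches.

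*cyp2k21* (3:12744083–12749198) had 8, 20, 7 and 11 counts in mutant clutches, against 6, 0, 6 and 4 counts in wild type clutches. In CPM these were 0.23, 0.606, 0.258 and 0.354 in mutant clutches, and 0.193, 0, 0.187 and 0.151 in wild type clutches, so the genotypes did not overlap (log2 fold change 1.45, SE 0.68, unadjusted p = 0.0564). *cyp2k22* had 2, 3, 5 and 3 counts in mutant clutches, against 0, 2, 1 and 0 counts in wild type clutches. Although its unadjusted p was 0.0404, the wild type clutches were all under 3 counts, so no fold change is given.

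*cyp2y3* (15:16175–32151), the most abundant P450 gene, had 74.8, 49.5, 94.6 and 60.6 CPM in mutant clutches, against 104, 97.0, 64.7 and 65.4 CPM in wild type clutches. A and D were the highest of all 8 clutches and S4 the lowest (log2 fold change −0.24, SE 0.22). Without A and D the difference was 0.11. The 9 *cyp2aa* genes of the cluster on Chromosome 23 had log2 fold changes from −0.57 to 0.51, with 5 above 0. Among them, *cyp2aa8* had 20.7, 51.2, 42.1 and 51.4 CPM in mutant clutches, against 24.6, 16.6, 58.8 and 37.4 CPM in wild type clutches.

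The 5 family 3 genes are relatives of the main drug-metabolising P450 of the human liver. All 5 had log2 fold changes above 0, from 0.08 to 0.51, against 53.1% of all genes. None had an unadjusted p under 0.05, and 4 of the 5 lie in a cluster on Chromosome 3 (40936094–40976582). *cyp3c1*, at 10.2 CPM per kb, had 19.6, 21.2, 23.5 and 28.6 CPM in mutant clutches, against 21.2, 22.9, 19.6 and 24 CPM in wild type clutches, with a 95% interval of −0.22 to 0.39. *cyp3a65* had 3.46 ± 2.99 CPM in mutant clutches, with 7.59 CPM in S8, and 2.42 ± 0.347 CPM in wild type clutches. *cyp20a1*, an enzyme with no settled substrate, had 29.8, 28.0, 37.4 and 38.2 CPM in mutant clutches, against 32.0, 31.6, 29.8 and 34.8 CPM in wild type clutches. Its 95% interval was −0.22 to 0.33.

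The filter on low counts left out 3 members. Beside *cyp19a1a* these were *cyp2k31*, with no count in mutant clutches and 1 count in wild type clutch A, and ENSDARG00000069186, 1 of 3 genes listed as CYP27A1, with 0, 3, 1 and 5 counts in mutant clutches and 0, 0, 1 and 1 counts in wild type clutches. The members just inside it were *cyp2k20*, with 3, 2, 2 and 1 counts in mutant clutches and 1, 0, 2 and 1 counts in wild type clutches, *cyp2k22*, whose counts are given above, and *cyp2x8*, with 1, 2, 3 and 0 counts in mutant clutches and 3, 1, 2 and 4 counts in wild type clutches.

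Many members, but not all, varied more between clutches of 1 genotype than most genes at their level. The SD of log2 CPM within a genotype was above the third quartile of all genes of like abundance (10 bins of mean log2 CPM) for 44 of 82 members (53.7%). *cyp24a1* had the largest SD (1.46, where the third quartile was 0.443), followed by *cyp2k6* (1.39), *cyp2k18* (1.24) and *cyp8b1* (1.2). *cyp20a1* (0.173) and *cyp26b1* (0.140) were among the members below that quartile. By class, the members above the third quartile of their bin were 1 of 6 steroid genes, 8 of 17 cholesterol and bile acid genes, 3 of 3 vitamin D genes, 1 of 4 retinoid genes, 3 of 4 CYP1 genes, 2 of 4 family 4 genes, 6 of 12 CYP2J-like and CYP2U genes, 17 of 26 remaining family 2 genes, 3 of 5 family 3 genes and 0 of 1 for *cyp20a1*. Differences between classes were not tested.

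**Figure D4:**
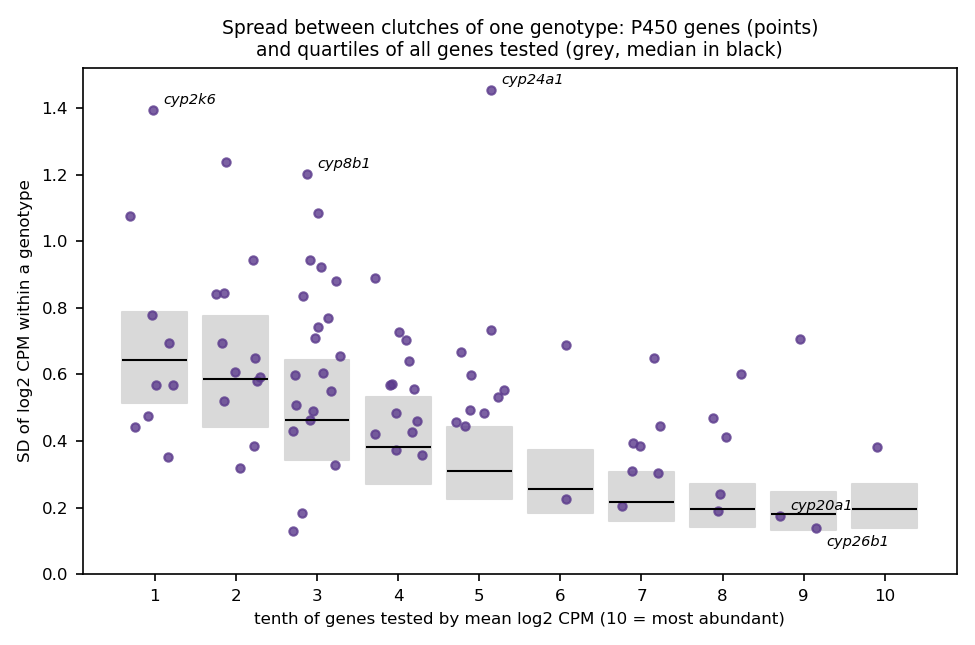
SD of log2 CPM between clutches of 1 genotype (vertical axis) for each member (points), by bin of mean log2 CPM of all genes tested (horizontal axis, bin 10 the most abundant), with the quartiles of all genes in grey and their median in black. Of the points, 44 of 82 lie above the grey band, with *cyp24a1* at 1.46 the highest.

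Clutch by clutch, S8 was the most extreme. It held the highest CPM of all 8 clutches in 30 of 82 members (36.6%), against 16.0% of all genes. By class these were 11 of 17 cholesterol and bile acid genes, 6 of 12 CYP2J-like and CYP2U genes, 3 of 5 family 3 genes and 0 of 4 retinoid genes. The lowest CPM was in A for 22 members (26.8%, against 14.4% of all genes) and in D for 16 (19.5%, against 13.6%). Mutant clutch S2 was the highest in 2 members (2.44%, against 13.1%), and so was wild type clutch D (2.44%, against 12.3%).

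**Figure D5:**
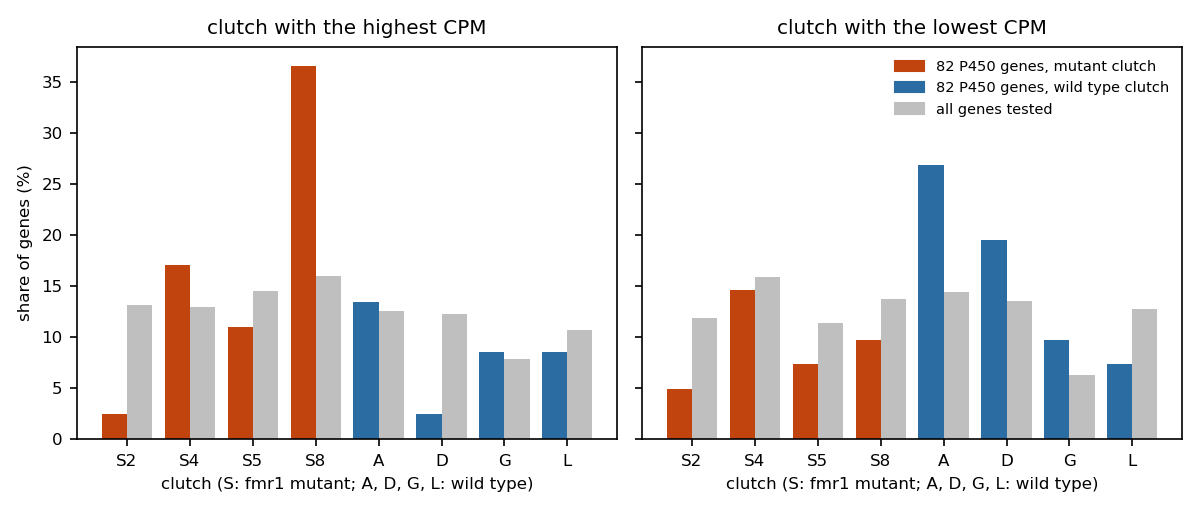
Share of the 82 P450 genes and of all genes tested (in %) whose highest CPM (one panel) or lowest CPM (other panel) is in each clutch, mutant clutches to the left of wild type clutches. S8 is the highest clutch for 36.6% of the P450 genes and 16.0% of all genes, and A the lowest for 26.8% and 14.4%.

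Of the 85 genes, 54 lay in 11 clusters, in which neighbours were at most 100000 bases apart. Members of 1 cluster are related in sequence, and reads that align equally well to more than 1 place were left out of the counts, so close copies may be undercounted. On Chromosome 3, 7 of the 8 *cyp2k* genes at 12710350–12826387 had log2 fold changes above 0 (median 0.82), against 53.1% of all genes. None of them had an unadjusted p under 0.05. Wild type clutch D was the lowest of all 8 clutches in *cyp2k8*, *cyp2k16*, *cyp2k18*, *cyp2k19*, *cyp2k20* and *cyp2k21*. *cyp2k20* had at most 3 counts per library, and *cyp2k6* had 31 counts in S8 and at most 6 elsewhere. The 4 *cyp2x* genes at 25:17358287–17403598 ran the other way from the *cyp2k* genes, with 1 of 4 above 0 and a median of −0.81. At 6:9471367–9581949 the neighbours *cyp27a2* and *cyp27c1* had opposite signs, 0.85 and −0.50.

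Genes that work with these enzymes were taken from 7 lists: electron donors, steroid synthesis, cholesterol synthesis, retinoic acid, the aryl hydrocarbon receptor, nuclear receptors, and fatty acid and eicosanoid genes. Of 126 genes, 124 were tested, 0 passed the FDR by edgeR's quasi-likelihood or likelihood-ratio test or by DESeq2, and 7 (5.65%, against 9.41% of all genes) had an unadjusted p under 0.05, 5 of them higher and 2 lower in mutant clutches. The name table listed P450 oxidoreductase, *por*, for 2 genes. ENSDARG00000059035 had 28.9, 40.1, 28.5 and 61.3 CPM in mutant clutches, against 28.8, 26.03, 33.2 and 31.2 CPM in wild type clutches, with S8 far above the rest (log2 fold change 0.41, SE 0.22). ENSDARG00000055092 (log2 fold change 0.04) and *fdx1*, the mitochondrial ferredoxin (0.04), differed little, with standard errors of 0.11 each. *pgrmc2*, a haem-binding membrane protein, had 70.6 ± 10.8 CPM in mutant clutches and 85.1 ± 2.41 CPM in wild type clutches (log2 fold change −0.27, unadjusted p = 0.0463).

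Among the sterol partners, *nr1h4*, the bile acid receptor, had the smallest p of all 7 lists. It had 1.35, 1.58, 0.626 and 2.06 CPM in mutant clutches, against 0.417, 0.489, 0.719 and 0.679 CPM in wild type clutches (log2 fold change 1.29, SE 0.38, unadjusted p = 0.00692). S8 was the highest clutch, and S5 lay among the wild type clutches, as in *cyp27a2*, *cyp27a3* and *cyp8b1*. *idi1*, an isomerase early in cholesterol synthesis, was lower in every mutant clutch, with 47.7, 45.8, 48.8 and 44.4 CPM, against 61.6, 65.2, 51.6 and 49.3 CPM in wild type clutches (log2 fold change −0.29, unadjusted p = 0.0286). *star*, which carries cholesterol into mitochondria for steroid synthesis, had a log2 fold change of 0.11 (SE 0.21).

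Among the retinoid partners, *aldh1a2*, which makes retinoic acid, had 54.0, 50.3, 51.5 and 64.5 CPM in mutant clutches, against 54.4, 52.5, 56.9 and 56.2 CPM in wild type clutches, with overlapping ranges. The carotenoid oxygenase *bco2* (ENSDARG00000055722) had 4.17 ± 1.56 CPM in mutant clutches and 2.40 ± 0.401 CPM in wild type clutches (log2 fold change 0.80, unadjusted p = 0.0182). The other gene listed as *bco2* (ENSDARG00000041715) had a log2 fold change of 0.53 (SE 0.62, unadjusted p = 0.404). Of the receptor genes above *cyp1a*, *ahr2* had a log2 fold change of 0.19 (SE 0.11), and its partner *arnt* had 6.86 ± 1.82 CPM in mutant clutches and 4.60 ± 1.25 CPM in wild type clutches (log2 fold change 0.58, unadjusted p = 0.0385). The eicosanoid list also held *tbxas1* (thromboxane synthase) and *ptgis* (prostacyclin synthase), which are P450 enzymes by family but lie outside the 82 members because their symbols do not begin with cyp. *tbxas1* had 8.24, 8.34, 9.61 and 8.59 CPM in mutant clutches, against 5.94, 4.66, 5.87 and 7.81 CPM in wild type clutches, without overlap (log2 fold change 0.52, unadjusted p = 0.0139), and *ptgis* had a log2 fold change of 0.09 (unadjusted p = 0.672). An *alox5* gene (ENSDARG00000043085) had 3, 11, 7 and 32 counts in mutant clutches, against 1, 0, 5 and 1 counts in wild type clutches (unadjusted p = 0.0112). The more abundant gene listed as *alox5* (ENSDARG00000057273) had 2.62 ± 0.817 CPM in mutant clutches and 3.43 ± 1.73 CPM in wild type clutches. Its log2 fold change was −0.39 (unadjusted p = 0.308).

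Over the other 5 marker lists, 3 of 31 genes (9.68%) had an unadjusted p under 0.05, near the 9.41% of all genes. Radial glia had 1 of 6 such genes (*her4.1*, log2 fold change −0.82), the pronephros 1 of 7 (*cdh17*, 0.42) and the retinal pigment epithelium 1 of 5 (an *rpe65* gene, 0.99), and the interrenal gland and melanophores had none of 6 and none of 7. The summed interrenal markers were 9.01 to 13.3 CPM in mutant clutches and 9.36 to 13.3 CPM in wild type clutches.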

How the data were processed

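The study sequenced strand-specific polyA+ libraries from 8 clutches. After trimming with AdapterRemoval, the authors aligned reads to GRCz11 with STAR (2.5.3a) and counted them by gene with featureCounts (1.5.2), and the deposited values are these whole-number counts, with no normalisation. Per the file header, reads needed a mapping quality of at least 10 and had to lie wholly in exons on the strand of the gene, and reads shared between genes were left out.

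The counts were analysed in R (4.3.3). Symbols were found for 28988 of 32057 genes in a name table, and duplicated or human-style P450 symbols were settled by Ensembl identifier. Genes with over 1 count in 4 or more libraries were scaled by TMM and compared by genotype with edgeR (4.0.16), using the quasi-likelihood test, with Benjamini-Hochberg adjustment over all 23567 genes. Log2 CPM used a prior count of 2, and lengths are exon lengths from the table. Unless stated otherwise, p-values in the text are unadjusted and come from edgeR. Counts of reads cover counting error only.

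Named were *cyp4v7*, members with an unadjusted p under 0.05, those whose genotypes did not overlap, the most abundant per kilobase of each class, and a list of 12 that included *cyp26a1*, *cyp51* and *cyp24a1*. *cyp19a1b*, on that list, matched no symbol in the name table and was not used here. No symbol matched *cyp1c1*, *cyp2x12*, *cyp2aa6* or *cyp7a1b* either, so members of some families may be missing. Other members were named after their values had been seen. The members, classes, partner and marker lists were chosen with earlier results of these data known, and 1 letter of a class pattern was added later so that *cyp2j20* joined the CYP2J-like class. Alternatives were the likelihood-ratio test, DESeq2 (1.42.0), limma-voom (3.58.1), RLE and upper quartile scaling, other filters, the replicate number as a block, and leaving out clutches. A comparison of protein sequences between members was not run.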

Additional observations from a re-analysis of the deposited data

Results flagged for a closer look

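Of 58 groups of 4 clutches checked among the named P450 genes, 3 held a clutch far from the other 3 by Dixon's criterion, where chance gives about 1 group in 20. *cyp8b1* had 11.2 CPM in mutant clutch S8, and the nearest mutant clutch had 2.64 CPM. *cyp2ad2* had 1.64 CPM in mutant clutch S4, with the next at 0.740 CPM. The CYP11A1 gene ENSDARG00000002347 had 0.128 CPM in wild type clutch A, where the nearest wild type clutch had 0.259 CPM. These values rest on few reads, with 4 counts in A and 9, 9 and 7 counts in D, G and L.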

How the results depend on the processing

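Of 511 log2 fold changes recomputed for the 29 named genes, 499 kept their sign and their side of the FDR, 10 changed sign and 2 passed the FDR (*cyp4v7* under DESeq2 and under the likelihood-ratio test, so that each of these tests passed 1 member). The members with an unadjusted p under 0.05 numbered 8 when over 1 CPM was required in 4 libraries (14.8% of 54 members, against 9.47% of all genes) and 5 to 18 with 1 clutch left out. All genes gave 4.80% to 19.5% with 1 clutch left out, and the 15 members (18.3%) without S5 stood against that 19.5%. The members numbered 4 (4.88%, against 5.41% of all genes) without A and D and 3 (3.66%, against 5.28%) without S8, A and D, both chosen after the data had been seen. Members without overlap numbered 5 to 11 with 1 clutch left out, where fewer clutches have to separate and all genes gave 5.67% to 19.2%. There were 11 without A and D (13.4%, against 15.1% of all genes) and 13 without all 3 (15.9%, against 19.9%). With 1 clutch left out, log2 fold changes spanned 0 for ENSDARG00000002347 (−0.36 to 0.45), *cyp26a1* (−0.36 to 0.0029), *cyp1d1* (−0.27 to 0.026), *cyp4t8* (−0.29 to 0.15), *cyp3c1* (−0.015 to 0.16) and *cyp20a1* (−0.0022 to 0.14). Without A and D the sign turned for ENSDARG00000002347 (−0.016), *cyp17a1* (0.20) and *cyp2y3* (0.11). The cause was not tested.

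With the replicate number as a block, 0 members passed the FDR and 18 (22.0%) had an unadjusted p under 0.05, against 0 and 9.43% of all genes. Deviations of same-numbered clutches had correlations of 0.25, −0.21, −0.012 and 0.18, within the −0.35 to 0.34 of differently numbered pairs. So few correlations of mixed sign cannot decide whether the numbers pair samples. RLE and upper quartile scaling left the median of all genes at 0.035 and 0.056. Genes with few counts per library carry wide intervals at this depth, so differences in them may be undetectable.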
